A study of Rattus norvegicus with 18 samples.

Results

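The haemoglobin genes and Alas2 were examined in RNA from the prefrontal cortex (PFC) of Sprague Dawley rat pups at postnatal day 14 (P14), with 6 pups in each of 3 groups. The members were chosen by symbol, as every row whose symbol begins with Hba or Hbb together with Alas2, which gave 5 of the 32623 genes listed. The set itself was selected on earlier results of these data, so the levels of its members are given as a description, and tests of group differences are given only as they come out of the fit over all genes. Dams of the control group (SAL) received saline. Dams of the post-natal group (PNO) were gavaged with oxycodone (oxy), an opioid analgesic, at 15 mg/kg/day, starting once the litter was born and ending at weaning. Dams of the in utero group (IUO) began at 10 mg/kg/day before mating, were raised stepwise to 15 mg/kg/day, and were kept on oxy through pregnancy and nursing. Both oxy groups were therefore exposed while nursing, and IUO pups also before birth. Bulk PFC tissue was used, and whether its blood vessels were flushed before dissection is not given in the sources used here.

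Haemoglobin carries oxygen in red blood cells as a tetramer of alpha chains (Hba genes) and beta chains (Hbb genes), each holding a haem group. Alas2 encodes the erythroid form of 5-aminolevulinate synthase, the enzyme that begins haem synthesis in developing red cells, whereas its sister gene Alas1 serves other tissues. Rat red cells lose their nucleus as they mature, and young red cells (reticulocytes) still hold haemoglobin and Alas2 transcripts, so whole tissue that contains blood yields these reads. Low haemoglobin expression has also been described in neurons and glia.

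The alpha-chain members were a pair of rows that both carry the symbol Hba-a2, called here Hba-a2 row 1 (ENSRNOG00000029886, 556 bases) and Hba-a2 row 2 (ENSRNOG00000047321, 557 bases), and Hba-a3 (ENSRNOG00000045989, 429 bases). The beta-chain member was Hbb (ENSRNOG00000058105, 660 bases), and Alas2 was ENSRNOG00000000167 (1749 bases). RefSeq lists 3 Hba symbols and 5 Hbb symbols in the GRCr8 rat assembly, against the 4 haemoglobin rows found here, and which RefSeq copy each row stands for is not given in the sources used here. Since the members are transcribed together in red cell precursors, the stretches of 120 bases before the transcription start of the haemoglobin genes are shown, from RefSeq (GRCr8, all on the minus strand, 5′ to 3′ as transcribed). They lie at chr10:15829139-15829258 (Hba-a2), chr10:15816944-15817063 (Hba-a3) and chr1:167663722-167663841 (Hbb). Capitals mark the motifs searched for on both strands, which were the CACCC element, the CCAAT box, the letters ATAAA as a form of the TATA box, and the GATA motif bound by GATA factors.

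Hba-a2: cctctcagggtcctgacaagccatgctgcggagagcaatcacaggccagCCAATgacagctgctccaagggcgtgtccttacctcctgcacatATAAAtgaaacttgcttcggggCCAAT

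Hba-a3: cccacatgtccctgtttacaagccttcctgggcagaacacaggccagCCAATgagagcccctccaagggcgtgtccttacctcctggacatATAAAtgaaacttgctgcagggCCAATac

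Hbb: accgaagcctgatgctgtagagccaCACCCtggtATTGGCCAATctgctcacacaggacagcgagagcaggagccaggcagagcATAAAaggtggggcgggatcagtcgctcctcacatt

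All 3 stretches held CCAAT, on the strand printed at -71 and -5 in Hba-a2, at -73 and -7 in Hba-a3, and at -81 in Hbb, where -1 is the last base before the start. Hbb carried a further CCAAT on the opposite strand, which begins at -86 and directly adjoins the other. All 3 also held ATAAA, at -27, -29 and -36. CACCC was found in Hbb alone, at -95, and GATA in none, and no matches overlapped. Over the 33469 full-length promoters of the table, the same window held CCAAT in 19.9%, ATAAA in 21.5%, CACCC in 29.5% and GATA in 31.4%. Over 250 bases upstream, Hba-a2 was 96.4% identical to Hba-a1 and 65.5% identical to Hba-a3, whereas Hba-a2 and Hbb shared 50.2%. The table's entry for Alas2 begins 4800 bases from the edge of the gene as RefSeq lists it, so its sequence is not shown.

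The libraries held between 18381819 and 26084780 expected counts. The labelled tissue was checked against 8 markers of cortical neurons, all of which were detected, and their summed level was 2229 to 3981 CPM (expected counts made comparable between libraries of unequal size) over the 18 pups, with Slc17a7, the vesicular glutamate transporter of cortical excitatory neurons, at 1340 ± 350 in SAL (SD, n = 6). Tables of no 2 pups were identical. IUO replicate 6 stood apart from the other pups in its haemoglobin counts, and the members' fold changes are given with and without it.

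Haemoglobin transcripts were abundant in this tissue. By mean TPM in SAL, a unit that accounts for transcript length, Hba-a2 row 1 ranked 33 among all 32623 genes, at 1906 ± 897 TPM (SD, n = 6). Hbb ranked 71 at 1110 ± 441 TPM, Hba-a2 row 2 ranked 81 at 1024 ± 649 TPM, Hba-a3 ranked 5325 at 27.1 ± 25.6 TPM, and Alas2 ranked 9096 at 10.3 ± 3.64 TPM. Hba-a2 row 1 exceeded Hbb in TPM in 18 of 18 pups, by 1.51 to 2.34 times. Hbb exceeded Hba-a2 row 2 in 13 of 18 pups only, and the group means of these neighbours lay within 1 SD of each other in SAL. Hba-a2 row 2 exceeded Hba-a3 in TPM in 18 of 18 pups, by at least 17.1 times. Hba-a3 exceeded Alas2 in 15 of 18 pups, and in SAL in only 3 of 6. Reads that match several copies were divided between rows, so that none of the 4 haemoglobin rows held a whole-number count in any pup, whereas Alas2 held a whole number (within 0.005) in 18 of 18. The split between the Hba-a2 rows, and the level of Hba-a3, are thus estimates, as are the sums to the extent that copies outside the member rows share reads.

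The 4 haemoglobin rows made up between 0.0502% and 0.238% of all expected counts in SAL pups (mean 0.132% ± 0.0697, SD, n = 6), between 0.0362% and 0.215% in PNO pups (0.132% ± 0.0715) and between 0.111% and 0.753% in IUO pups (0.294% ± 0.232, or 0.202% ± 0.0634 without IUO replicate 6). SAL and PNO pups covered nearly the same range, and 2 of 6 IUO pups lay above every SAL pup. In bulk tissue, more cells of a type and more RNA in each cell cannot be told apart, and neither can blood left in the vessels and expression by the tissue. IUO replicate 6 had the highest share at 0.753%, and the next highest pup of the group had 0.283%. The lowest share in each group was that of SAL replicate 1 (0.0502%), PNO replicate 1 (0.0362%) and IUO replicate 2 (0.111%).

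**Figure D1:**
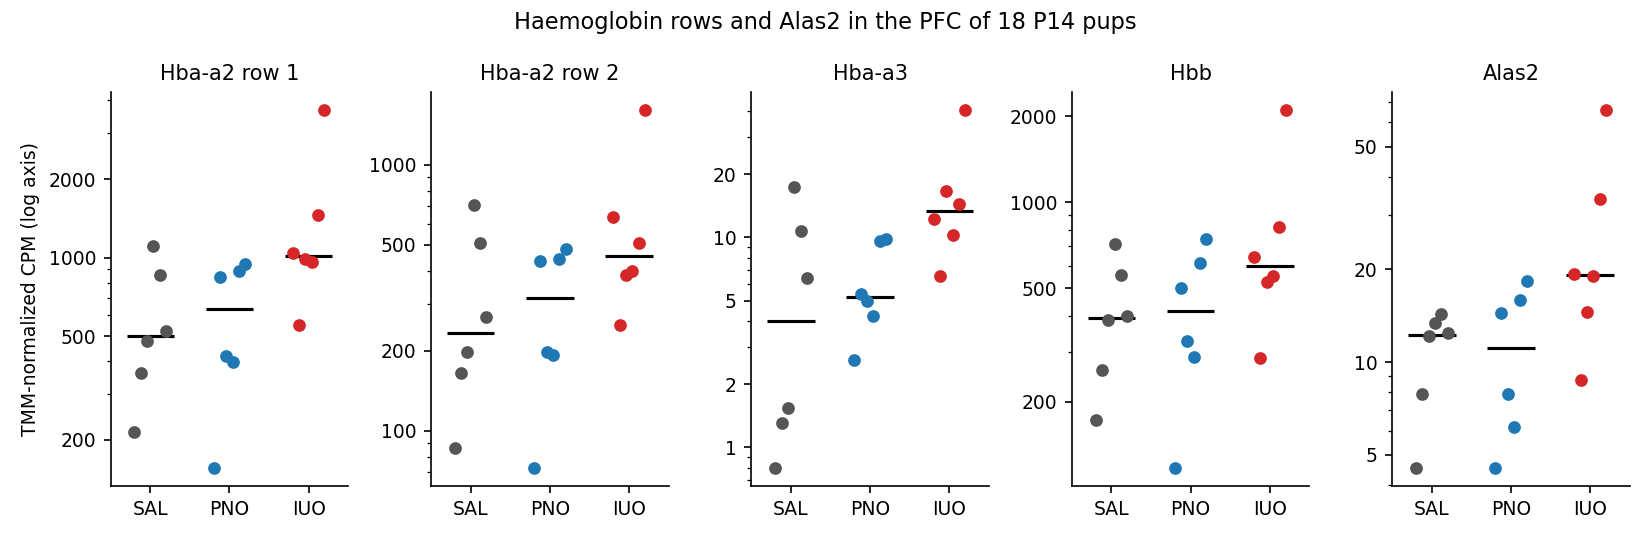
Level of each member in each pup, as TMM-normalized CPM on a log axis, by group; each point is 1 pup and the black line is the group median. The groups overlap for every member, the SAL and PNO pups spread over similar ranges, and the highest point in each panel is IUO replicate 6, with 65.8 CPM for Alas2 and 3681 CPM for Hba-a2 row 1.

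Alpha chains were followed first. Hba-a2 row 1, the most abundant member, had TMM-normalized levels of 214 CPM at the lowest, 501 at the median and 1103 at the highest in SAL pups. In PNO pups these were 156, 633 and 941 CPM, and in IUO pups 551, 1013 and 3681 CPM. The SAL and PNO ranges overlapped almost fully, 6 of 6 IUO pups exceeded the SAL median but only 2 of 6 exceeded every SAL pup, and 5 of 6 exceeded every PNO pup. The log2 fold change from edgeR was 0.04 (SE 0.48) for PNO against SAL, 1.29 (SE 0.49) for IUO against SAL and 1.25 (SE 0.49) for IUO against PNO. Their adjusted p-values over all genes tested by edgeR were 0.988, 0.592 and 0.240, so none passed 0.05.

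Hba-a2 row 2, the near-identical copy, had 86.5, 233 and 705 CPM as the lowest, median and highest of the SAL pups, 72.6, 316 and 483 CPM in PNO, and 251, 455 and 1610 CPM in IUO. Only 1 of 6 IUO pups exceeded every SAL pup and 3 of 6 exceeded every PNO pup. The edgeR log2 fold change was -0.09 (SE 0.53, adjusted p-value 0.980) for PNO against SAL, 0.97 (SE 0.54, adjusted p-value 0.806) for IUO against SAL and 1.06 (SE 0.54, adjusted p-value 0.362) for IUO against PNO. With all alpha-chain rows summed to 1 row, which removes the division of reads among them, the log2 fold changes were -0.0019, 1.19 and 1.19, between those of the separate rows for the last pair of contrasts, and 0.66 in each of these without IUO replicate 6.

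Hba-a3, the low-abundance alpha-like gene, had the widest range over the 18 pups, though not within PNO or IUO by its coefficient of variation. It had 0.799, 3.97 and 17.3 CPM as the lowest, median and highest of the SAL pups, 2.61, 5.18 and 9.78 CPM in PNO and 6.56, 13.3 and 40.5 CPM in IUO. The SAL pups fell into a low set of 3 (0.799, 1.3 and 1.54 CPM) and a high set of 3 (6.41, 10.7 and 17.3 CPM), and 4 of 6 PNO pups lay between these sets. IUO pups exceeded the SAL median in 6 of 6 cases and every PNO pup in 5 of 6. The edgeR log2 fold change was -0.06 (SE 0.63, adjusted p-value 0.987) for PNO against SAL, 1.40 (SE 0.63, adjusted p-value 0.702) for IUO against SAL and 1.46 (SE 0.63, adjusted p-value 0.285) for IUO against PNO. The sign of its PNO value depended on the method, being 0.58 in limma-voom, and its value for IUO relative to SAL was 2.62 in limma-voom with sample quality weights.

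The beta chain behaved much as the alpha chains did. Hbb had 172, 393 and 712 CPM as the lowest, median and highest of the SAL pups, 118, 415 and 745 CPM in PNO, and 286, 597 and 2105 CPM in IUO. No group was separated from another, and 2 of 6 IUO pups exceeded every SAL pup and every PNO pup. The edgeR log2 fold change was 0.06 (SE 0.46, adjusted p-value 0.984) for PNO against SAL, 0.99 (SE 0.47, adjusted p-value 0.721) for IUO against SAL and 0.93 (SE 0.47, adjusted p-value 0.357) for IUO against PNO.

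Alas2, the haem synthesis member and the only row with undivided reads, had 4.54, 12.3 and 14.4 CPM as the lowest, median and highest of the SAL pups, 4.55, 11.1 and 18.4 CPM in PNO, and 8.76, 19.1 and 65.8 CPM in IUO. Of the IUO pups, 5 of 6 exceeded every SAL pup and 4 of 6 exceeded every PNO pup. PNO pups were split, with 3 of 6 above every SAL pup and 3 below the SAL median. The edgeR log2 fold change was 0.05 (SE 0.44, 95% interval -0.88 to 0.98, adjusted p-value 0.985) for PNO against SAL. The value of IUO relative to SAL was 1.31 (SE 0.44, 95% interval 0.38 to 2.25, adjusted p-value 0.530), and for IUO against PNO 1.26 (SE 0.44, 95% interval 0.33 to 2.19, adjusted p-value 0.193).

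All 5 members passed the filter on low counts and were among the 15703 genes tested. For PNO against SAL, edgeR called 0 of 5 members at an adjusted p-value under 0.05, where it called 0% of all genes tested, and 0 of 5 had an unadjusted p-value under 0.05, against 4.5% of all genes. For IUO against SAL it again called 0 of 5 members and 0% of genes. At an unadjusted p-value under 0.05 it marked 4 of 5 members, all but Hba-a2 row 2, against 6.88% of genes. For IUO against PNO it called 0 of 5 members, against 0.0637% of genes, and 3 of 5 (Alas2, Hba-a2 row 1 and Hba-a3) had an unadjusted p-value under 0.05, against 15.3% of genes. Each of the 4 haemoglobin rows held divided reads, shared with copies inside or outside the set, and all 5 members vary together between pups. The members therefore do not count as 5 separate observations. IUO contrasts share the IUO pups, and the contrasts with SAL share the SAL pups. DESeq2 called 0 of 5 members in each contrast, where it called 0.00637% of all genes in the PNO to SAL contrast, 0.312% in the IUO to SAL contrast and 2.78% in the IUO to PNO contrast. In the same order, 0, 3 and 3 members had an unadjusted DESeq2 p-value under 0.05, against 5.07%, 7.58% and 16.4% of all genes.

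The 95% intervals of the edgeR log2 fold changes were wide. For PNO against SAL they ran from -1.38 at the lowest (Hba-a3) to 1.25 at the highest (Hba-a3), so that a log2 change of 1 in either direction lay inside the interval of that row, and for Hbb they ran from -0.91 to 1.03. For IUO against SAL the interval ran from 0.27 to 2.32 for Hba-a2 row 1, from 0.0030 to 1.97 for Hbb and from -0.16 to 2.10 for Hba-a2 row 2.

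**Figure D2:**
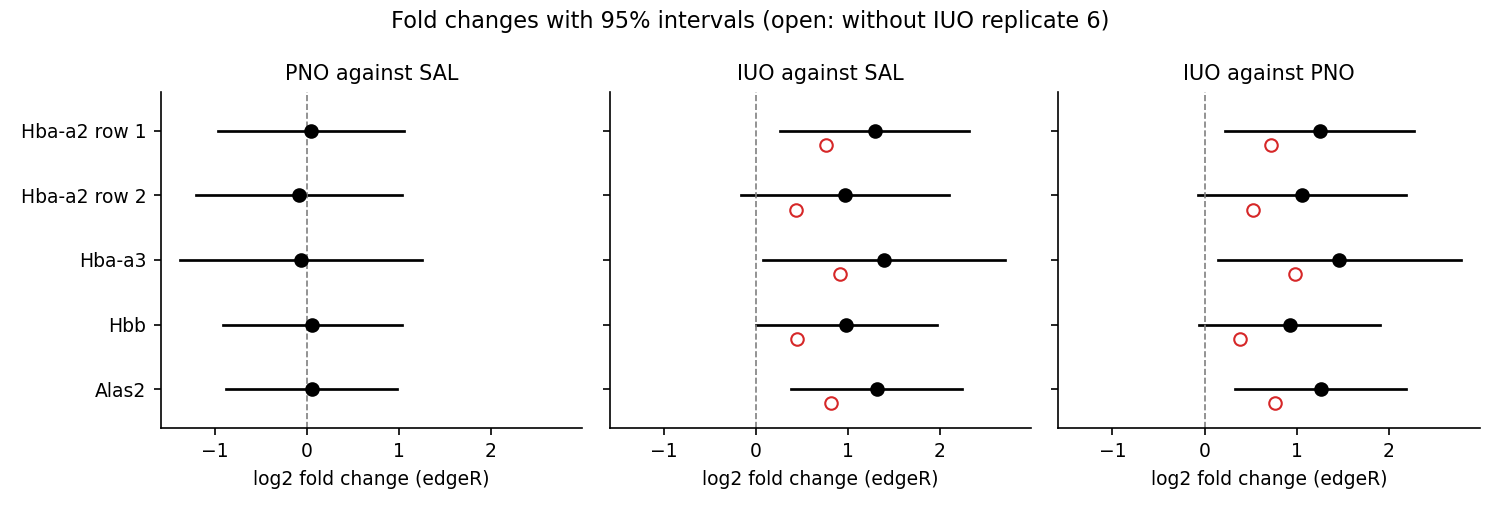
The log2 fold change of each member in each contrast from edgeR (filled points) with its 95% interval (lines), and the value without IUO replicate 6 in the contrasts that use it (open circles). The PNO against SAL points sit near 0, and every open circle lies closer to 0 than the filled point beside it, as with Hbb at 0.45 in place of 0.99 against SAL.

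The IUO values rested to a large extent on IUO replicate 6. It was the highest of 18 pups for each of the 5 members, at 1.95 times the next pup for Alas2, 2.28 times for Hba-a2 row 2, 2.34 times for Hba-a3, 2.52 times for Hba-a2 row 1 and 2.57 times for Hbb. Without it, the edgeR log2 fold changes for IUO against SAL were 0.82 (SE 0.39) for Alas2, 0.76 (SE 0.43) for Hba-a2 row 1, 0.92 (SE 0.61) for Hba-a3, 0.44 (SE 0.50) for Hba-a2 row 2 and 0.45 (SE 0.41) for Hbb. The direction held for all 5, and only Alas2 kept an unadjusted p-value under 0.05 (0.0481) (edgeR adjusted p-value 0.779). Against PNO the values without this pup were 0.77 for Alas2, 0.72 for Hba-a2 row 1, 0.98 for Hba-a3, 0.52 for Hba-a2 row 2 and 0.39 for Hbb, and 0 of 5 had an unadjusted p-value under 0.05.

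From the lowest to the highest of the 18 pups, CPM differed 14.5-fold for Alas2, 17.9-fold for Hbb, 22.2-fold for Hba-a2 row 2, 23.5-fold for Hba-a2 row 1 and 50.7-fold for Hba-a3. The counting error of a single library, as the inverse square root of the mean count in SAL, was 1.04% for Hbb (mean count 9323) and 6.42% for Alas2 (mean count 242.5).

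The members varied together. Over the 18 pups, log2 CPM of Hba-a2 row 1 and Hbb had a Pearson's r of 0.98 and a Spearman's rho of 0.93. Alas2, whose counts were whole, had r 0.96 and rho 0.91 with Hba-a2 row 1, and r 0.96 and rho 0.91 with Hbb. Each permutation p-value was 1e-05, the smallest that 100000 resamples can give, and stayed so after adjustment over the 3 pairs. Without IUO replicate 6 and PNO replicate 1, the pups farthest from the median, r was 0.96, 0.93 and 0.93. Within each group alone, r for Hba-a2 row 1 and Hbb was 0.99 in SAL, 0.99 in PNO and 1.00 in IUO, and for Hbb and Alas2 it was 0.93, 0.96 and 0.98. The relation was present within each group, SAL pups included.

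**Figure D3:**
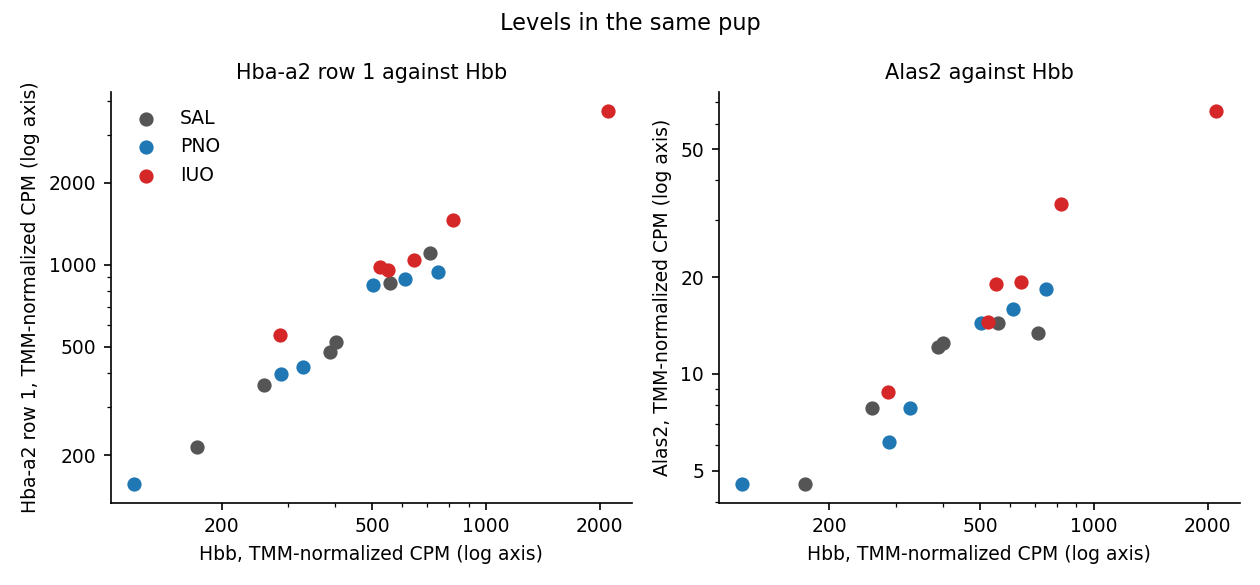
Hba-a2 row 1 (left) and Alas2 (right) against Hbb in the same pup, as TMM-normalized CPM on log axes; each point is 1 of 18 pups, coloured by group. Points of all groups lie along 1 line, with r of 0.98 and 0.96, and IUO replicate 6 lies at its upper end.

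Although the rows varied together, the make-up of the haemoglobin counts differed between pups. Hba-a2 row 1 made up 43.5% to 46.1% of haemoglobin counts in SAL pups (mean 44.6% ± 0.993, SD, n = 6), 43.2% to 47.3% in PNO pups (45.0% ± 1.38) and 44.7% to 52.1% in IUO pups (49.7% ± 2.64). In IUO, 5 of 6 pups lay above every SAL and every PNO pup, and IUO replicate 1, at 44.7%, did not. Hbb made up 26.1% to 29.2% in IUO pups, against 28.1% to 36.4% in SAL and 28.1% to 34.5% in PNO, so that 3 of 6 IUO pups lay below every pup of the other groups. The share of Hba-a2 row 2 overlapped in all groups, at 18.3% to 27.8% in SAL, 20.8% to 24.3% in PNO and 18.2% to 27.2% in IUO. Hba-a3 never exceeded 0.869%.

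The ratio of alpha-chain to beta-chain counts was 1.75 to 2.56 in SAL pups (mean 2.10 ± 0.350, SD, n = 6), 1.90 to 2.56 in PNO pups (2.10 ± 0.248) and 2.42 to 2.83 in IUO pups (2.59 ± 0.142). All 6 IUO pups exceeded the median of SAL and of PNO, and 3 of 6 exceeded every pup of each. The pup with the highest ratio, IUO replicate 2 at 2.83, was the one with the fewest haemoglobin counts in its group, and IUO replicate 6 had 2.53. No test is given, as the ratio is a score over the members, and it covers only the beta-chain counts that were given to the Hbb row. Adding to Hbb a pair of unnamed rows that varied closely with it (LOC103694855 and LOC103694857, described with the genes most alike), a choice made after seeing the data, gave ratios of 0.903 to 1.26 in SAL (1.07 ± 0.15), 0.949 to 1.26 in PNO (1.06 ± 0.118) and 1.31 to 1.44 in IUO (1.35 ± 0.0512). With the same rows added, haemoglobin made up 0.172% ± 0.0898 of counts in SAL, 0.173% ± 0.0934 in PNO and 0.370% ± 0.294 in IUO. Whether these rows are beta-chain copies is not given in the sources used here. Alas2 was present at 5.27 to 11.4 counts per 1000 haemoglobin counts in SAL (9.01 ± 2.26), 6.98 to 13.0 in PNO (8.82 ± 2.12) and 7.60 to 12 in IUO (9.10 ± 1.63), and these ranges overlapped almost entirely.

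**Figure D4:**
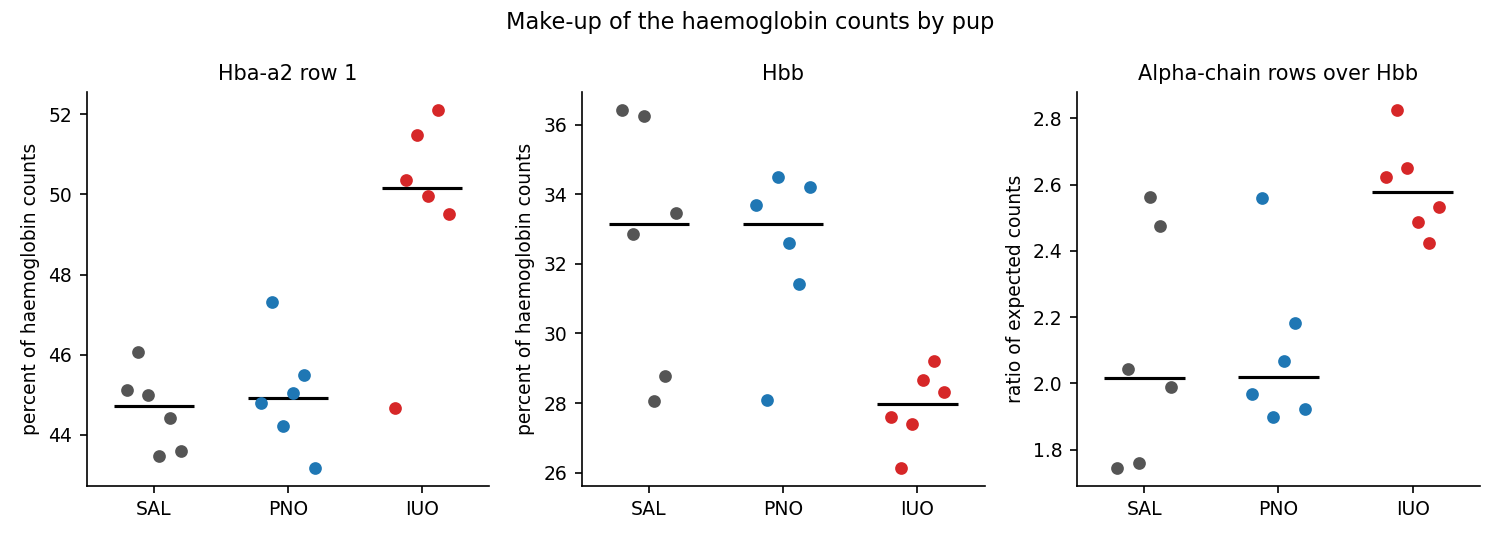
Share of the haemoglobin counts in Hba-a2 row 1 (left) and in Hbb (middle), in percent, and the ratio of alpha-chain counts to Hbb counts (right), by pup and group; black lines are medians. In IUO the Hba-a2 row 1 share is between 49.5% and 52.1% in 5 of 6 pups, and the ratio lies between 2.42 and 2.83.

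The 10 genes outside the set whose log2 CPM was most like that of summed haemoglobin over the 18 pups were, in order, LOC103694855, LOC103694857, Hemgn, Rsad2, Slc4a1, Cdc25b, Ucp2, Cd52, Lgals5 and Tesk1. The first pair had r of 0.99 and rho of 0.97 and 0.96, carried divided reads in all 18 pups as the globin rows did, and could not be matched to a named gene. In TPM they averaged 352 and 798 in SAL, 352 and 812 in PNO, and 668 and 1531 in IUO. Of 15698 genes compared, they alone exceeded the r of Alas2 (0.95), and 8 genes in all exceeded 0.8. Hemgn (hemogen, a nuclear protein of red cell precursors) had r 0.87 and 0.440 ± 0.219 CPM in SAL, 0.451 ± 0.341 in PNO and 1.17 ± 0.839 in IUO (SD, n = 6), the last being 0.844 ± 0.283 without IUO replicate 6. Slc4a1 (band 3, the anion exchanger of the red cell membrane) had r 0.85 and 2.98 ± 1.24, 2.93 ± 1.56 and 5.77 ± 5.07 CPM, the last being 3.82 ± 1.94 without that pup. Rsad2, an interferon-induced gene, had r 0.86, and Ucp2, a mitochondrial carrier, had r 0.83. Their r without IUO replicate 6 was 0.80 for Hemgn, 0.77 for Slc4a1, 0.78 for Rsad2 and 0.74 for Ucp2. These values share the library and its depth with the globin rows, and edgeR, DESeq2 and limma-voom called 0 of the 10 in any contrast. At an unadjusted p-value under 0.05, edgeR marked Hemgn and Lgals5 in both contrasts that involve IUO pups. Of all genes, it marked 6.88% in IUO relative to SAL and 15.3% in IUO relative to PNO. Without IUO replicate 6 edgeR marked 0 of the 10, and 6.36% and 14.5% of all genes. The 10 were chosen for their likeness to summed haemoglobin, so their marks do not count as observations separate from the members.

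Genes of red cell formation outside the set had a lower r with summed haemoglobin than Alas2 did, in each of the 3 lists examined. Of 10 erythroid transcription factors, 8 passed the filter and 3 had r above 0.5 with summed haemoglobin. These were Zfpm1 (0.64), Nfe2 (0.64) and Klf1 (0.56), the last pair named after their values were seen. The edgeR test called 0 in any contrast. At an unadjusted p-value under 0.05 it marked 1 higher and 1 lower for IUO against SAL (6.88% of all genes were marked). It marked 2 higher and 1 lower for IUO against PNO (15.3%), and 1 lower for PNO against SAL (4.5%). DESeq2 called Ldb1 and Zfpm1 for IUO against PNO, where it called 2.78% of all genes, and limma-voom called none. With sample quality weights, a setting in which limma-voom called 12.9% of all genes for that contrast, it called Ldb1, Tal1 and Zfpm1 here, Cpox among the haem synthesis genes, and Bnip3l and Epb41 among the red cell genes. The edgeR log2 fold changes of these 6 for IUO against PNO were positive for Ldb1 (0.22), Zfpm1 (0.29) and Epb41 (0.42) and negative for Tal1 (-0.98), Cpox (-0.36) and Bnip3l (-0.12). The list's median log2 fold change for IUO against SAL was 0.11, against -0.0073 for all genes. Those of highest level were Ldb1, Bcl11a, Lmo2 and Zfpm1, at 78.4, 68.9, 17.9 and 10.8 CPM in SAL and 83.8, 66.0, 17.3 and 12.6 CPM in IUO. All of these are also expressed outside blood. Levels of 3 core factors of red cell precursors, named after their values were seen, are also given. Gata1 did not pass the filter, and its median over the 17 pups other than IUO replicate 6 was 0. It averaged 0.026 CPM in SAL, 0.088 in PNO and 0.071 in IUO, and Klf1 1.39, 1.41 and 1.51 CPM. Tal1, which endothelial and neural cells also express, had 8.17 ± 4.05, 9.49 ± 4.81 and 4.81 ± 0.373 CPM (SD, n = 6). Its r with summed haemoglobin was -0.03. The edgeR log2 fold change of Tal1 was -0.76 in IUO relative to SAL and -0.98 relative to PNO, opposite in sign to the members. Both had an unadjusted p-value under 0.05, as had 6.88% and 15.3% of all genes.

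The 12 haem synthesis genes other than Alas2 all passed the filter, and 1 had r above 0.5 with summed haemoglobin. The edgeR test called 0. At an unadjusted p-value under 0.05 it marked 1 lower in IUO than in SAL (6.88% of all genes were marked) and 1 lower in IUO than in PNO (15.3%). It marked 1 higher in PNO than in SAL (4.5%). DESeq2 called Cpox for IUO against PNO, where it called 2.78% of all genes. The list had a median log2 fold change of -0.03 for IUO against SAL and 0.04 for PNO against SAL. Alas1, the form used by non-erythroid cells, had 39.7 ± 4.71 CPM in SAL, 39.2 ± 6.53 in PNO and 37.6 ± 2.46 in IUO (SD, n = 6), and r of -0.44 with summed haemoglobin where Alas2 had 0.95. Fech (ferrochelatase, which inserts iron into the ring) had 37.2 ± 3.08, 38.9 ± 3.57 and 40.7 ± 2.19 CPM. Fech was the gene with r above 0.5 (0.52). In IUO replicate 6, Alas1 had 35.5 CPM, inside the range of the other 17 pups, and Fech had 44.3 CPM, above their highest value of 42.3.

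Of 30 red cell membrane, enzyme and late erythroid symbols, 28 were matched and 22 passed the filter. The edgeR test, DESeq2 and limma-voom called 0. At an unadjusted p-value under 0.05, edgeR marked 1 as higher for IUO against SAL (6.88% of all genes were marked). It marked 2 as higher and 2 as lower for IUO against PNO (15.3%), and 0 for PNO against SAL (4.5%). The list had a median log2 fold change of 0.12 for IUO against SAL, -0.03 for PNO against SAL and 0.10 for IUO against PNO. Among those of high level were Mkrn1, Tfrc and Bnip3l, which neural cells also express, at 186, 169 and 159 CPM in SAL and 189, 163 and 156 CPM in IUO. Of the 22, 6 had r above 0.5 with summed haemoglobin. Ahsp, which encodes the chaperone of free alpha chains and was named after its values were seen, had r 0.78 and 5.30 ± 2.5 CPM in SAL, 5.10 ± 1.93 in PNO and 6.23 ± 2.0 in IUO (SD, n = 6).

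Embryonic and fetal globins were at or near 0. Of 8 symbols 5 were matched and none passed the filter, and Hbz, Hbe2 and Hbg1 had 0 counts in all 18 pups. Hbq1b averaged 0.142 CPM in SAL, 0.122 in PNO and 0.275 in IUO. Globins of other tissues were present, 3 of 4 passed the filter and edgeR called 0. At an unadjusted p-value under 0.05, edgeR marked Ngb as higher in PNO than in SAL (4.5% of all genes were marked), and Cygb and Ngb as lower in IUO than in SAL (6.88%) and than in PNO (15.3%). Ngb came nearest to a call, with a log2 fold change of -1.11 for IUO against PNO (edgeR adjusted p-value 0.0538). For that contrast DESeq2 called Ngb (2.78% of all genes were called), limma-voom called 0, and with sample quality weights it called Cygb and Ngb (12.9%). Cygb (cytoglobin) had 36.1 ± 8.66 CPM in SAL, 38.2 ± 7.47 in PNO and 29.0 ± 3.10 in IUO, and Ngb (neuroglobin) had 13.8 ± 4.28, 19.7 ± 5.65 and 9.10 ± 1.06 CPM (SD, n = 6), with r of -0.29 and -0.09 with summed haemoglobin. Of 14 rows for the 13 genes of haem breakdown and haemoglobin clearance, 13 passed the filter and edgeR called 0. At an unadjusted p-value under 0.05, edgeR marked Slc48a1 (a haem transporter) as higher in PNO than in SAL (4.5% of all genes were marked). It marked Hmox1 (the inducible haem oxygenase, named after its values were seen) as lower in IUO than in SAL (6.88%). Hmox1, Hmox2 and Slc48a1 were marked as lower in IUO than in PNO (15.3%). For the last contrast DESeq2 called Slc48a1 (2.78% of all genes were called) and limma-voom called 0. With sample quality weights limma-voom called Hmox2 and Slc48a1 (12.9%). Their median log2 fold change was -0.02 for IUO against SAL. Fth1 and Ftl1, the ferritin chains that store iron, had 834 and 198 CPM in SAL and 879 and 224 CPM in IUO.

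**Figure D5:**
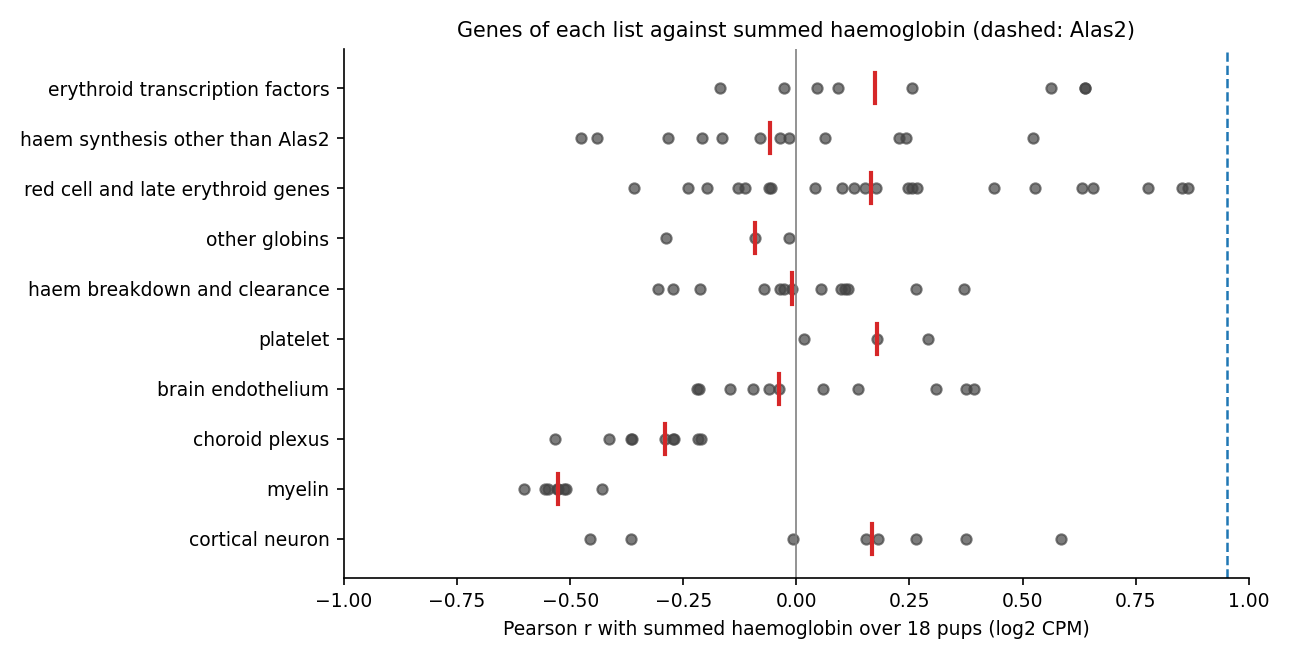
Pearson's r between log2 CPM of each tested gene and log2 CPM of summed haemoglobin over 18 pups, by gene list; points are genes, red bars are list medians, and the dashed line is Alas2. List medians lie between -0.53 (myelin) and 0.18 (platelet), and no listed gene reaches the 0.95 of Alas2.

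Markers of other cells in the sample are given beside these values, and their part in them was not tested. Brain endothelium had 11 of 13 symbols matched, all tested, and its summed level was 437 to 567 CPM in SAL, 426 to 597 in PNO and 407 to 536 in IUO, with a median r of -0.04 with summed haemoglobin. Of these 11 genes, 0 had a positive log2 fold change for IUO against SAL (median -0.11) and 7 did for IUO against PNO (median 0.02). The edgeR test, DESeq2 and limma-voom, with or without sample quality weights, called 0, and edgeR marked 2 as lower at an unadjusted p-value under 0.05 for PNO against SAL and 0 in the IUO contrasts. Of the platelet list, 3 of 10 rows passed the filter, and all 3 had positive log2 fold changes for IUO against SAL (median 0.56), with 0 called by edgeR, DESeq2 and limma-voom, and Itga2b called for IUO against PNO with sample quality weights. Gp1bb, the tested row of highest level, had 968, 1034 and 985 CPM in SAL, PNO and IUO. Another row with the symbol Gp1bb (ENSRNOG00000046981), which did not pass the filter, had only 0.184, 0.256 and 0.307 CPM. Pf4 (platelet factor 4) had 0.711, 1.04 and 1.17 CPM in SAL, PNO and IUO, and Itga2b (the integrin subunit of platelets) 1.73, 1.63 and 2.55 CPM, whereas Treml1, which did not pass the filter, had 0.257, 0.455 and 0.196 CPM. Pf4 had an unadjusted edgeR p-value under 0.05 for IUO against SAL (as did 6.88% of all genes) and Itga2b for IUO against PNO (15.3% of all genes), and the r of these genes with summed haemoglobin was 0.29 and 0.02. Ppbp, named after its values were seen, did not pass the filter. It was at 0 in every SAL and PNO pup and in IUO replicate 6, and averaged 0.017 CPM in IUO. Of the 10 neutrophil genes only Lcn2 passed the filter, 1 was at 0 in all pups, and the summed level was 2.47 to 6.42 CPM in SAL, 2.77 to 6.76 in PNO and 3.15 to 4.99 in IUO. In IUO replicate 6 the summed level was 4.99 CPM, rank 4 among the 18 pups. Of these genes only Mpo (0.307 CPM) and Ngp (0.394 CPM), both below the filter and named after their values were seen, lay above all 17 other pups in it. Of the 10 lymphocyte genes, Lck and Cd4 passed, and both had positive log2 fold changes in IUO relative to SAL (median 0.28) and relative to PNO (median 0.45). For these edgeR, DESeq2 and limma-voom called 0, edgeR marked Lck at an unadjusted p-value under 0.05 for IUO against PNO, and Cd4 was called with sample quality weights. Mural cell genes had a positive log2 fold change for IUO against SAL in 3 of 9 cases (median -0.10) and meningeal genes in 7 of 9 (median 0.13), and edgeR, DESeq2 and limma-voom, with or without sample quality weights, called 0 of either list, with 1 of each marked as lower by edgeR at an unadjusted p-value under 0.05 for IUO against PNO and 0 in the other contrasts. Myelin genes differed more: their summed level was 1734 to 9350 CPM in SAL, 2942 to 14978 in PNO and 2218 to 5660 in IUO, and all 8 had a negative r with summed haemoglobin (-0.43 to -0.60). Of the 8, 0 had a positive log2 fold change for IUO against SAL (median -0.60) or for IUO against PNO (median -1.37). For PNO against SAL 8 of 8 were positive (median 0.72). There edgeR called 0 and marked 1 as higher at an unadjusted p-value under 0.05. For IUO against PNO, edgeR called 0 of the 8 and marked 8 of 8 at an unadjusted p-value under 0.05, against 15.3% of all genes. DESeq2 called 7, against 2.78% of all genes, and limma-voom called 0, or 8 with sample quality weights, against 12.9% of all genes. Striatal genes, a check on dissection, had positive log2 fold changes in 9 of 9 cases for IUO against SAL (median 0.52) and for IUO against PNO (median 0.85). For PNO against SAL 0 of 9 were positive (median -0.29). Of the striatal genes edgeR and DESeq2 called 0 of 9, edgeR marked 0 at an unadjusted p-value under 0.05, and limma-voom with sample quality weights called Pde10a for IUO against PNO. Their summed level ran from 195 to 1990 CPM over the 18 pups, it was 436 CPM in IUO replicate 6, and their r with summed haemoglobin was -0.19 to -0.38. Choroid plexus genes had positive log2 fold changes in 0 of 9 cases for IUO against SAL (median -0.61) and in 0 of 9 for IUO against PNO (median -1.14). For PNO against SAL 9 of 9 were positive (median 0.52). The edgeR test called 0 and marked 1, Sostdc1, at an unadjusted p-value under 0.05 for IUO against PNO, DESeq2 and limma-voom called 0, and with sample quality weights Sostdc1 was called. Summed, these genes ran from 5.0 to 992 CPM over the 18 pups, and their r with summed haemoglobin was -0.21 to -0.53.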

How the data were processed

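Total RNA from the PFC of 18 P14 pups was made into TruSeq V2 libraries by the authors and sequenced on a single flow cell. For every gene the authors deposited an expected count, in which a read matching several genes is divided between them, with TPM and FPKM values derived from it, the latter not used here. The aligner, quantifier, genome build, strand setting and test are not given in the sources used here. Total expected counts ran from 18381819 to 26084780 per pup.

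Expected counts were rounded and tested in edgeR 4.0.16 (R 4.3.3) by quasi-likelihood, two-sided, in 1 model of all 18 pups, with TMM factors and filterByExpr. P-values were adjusted by Benjamini-Hochberg over the 15703 genes tested and called at 0.05. The fit was tested on simulated data. Deposited TPM served to compare genes. Log2 CPM used a prior count of 2, and correlations 100000 permutations. Alternatives were DESeq2 1.42.0, limma 3.58.1 (voom, with and without sample weights, and on log2(TPM + 0.1)), other size factors and filters, the replicate number as a block, and each pup left out. Pups are separate animals by their titles, and p-values measure the spread between these 18. Litters are not given in the labels.

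The members and lists were chosen with earlier results of these data known. Named genes were the members, the 10 genes most like summed haemoglobin by Pearson's r, and genes called or of the 4 highest levels per list, and others are said to be named after their values were seen. Upstream sequences, scanned with Python 3.11.15 and aligned with Biopython 1.88, came from RefSeq (GRCr8), and all 4 member symbols were matched. A gene of the red cell list that this rule names is not reported here.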

Additional observations from a re-analysis of the deposited data

Results flagged for a closer look

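Haemoglobin made up 0.753% of the expected counts of IUO replicate 6, where the nearest pup of the group had 0.283%. The gap was 0.732 of the range of the 6 IUO pups, past Dixon's 95% critical value for a group of 6. On the log2 CPM scale the same pup was not past this value for any of the 5 members, with gaps of 0.333 to 0.501 of the range. In PNO replicate 1, Alas2 had 13.0 counts per 1000 haemoglobin counts, where the nearest PNO pup had 8.43, a gap of 0.76 of the range. This pup also had the lowest haemoglobin share of all 18. Of 24 groups of pups examined in this way 2 stood out. Chance alone marks about 1 group in 20 where the groups are independent and normally spread. The 24 share pups and rows that vary together, so that rate does not apply directly to them.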

How the results depend on the processing

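edgeR, DESeq2 and limma called no member in any contrast under any alternative run, each pup left out included, and the smallest adjusted p-values of any were 0.064 (Hba-a3, IUO against SAL) and 0.0776 (Alas2, IUO against PNO), as against 0.702 and 0.193 in edgeR. For IUO against SAL and IUO against PNO, all 5 members kept a positive log2 fold change throughout, the lowest being 0.44 and 0.39, both without IUO replicate 6. The number of members with an unadjusted p-value under 0.05 was less stable. For IUO against SAL it was 4, and with 1 pup left out it ran from 1 (without IUO replicate 6) to 5, and was 2 without SAL replicate 1, 2, 3 or 6. For IUO against PNO it was 3, ran from 0 (without IUO replicate 6) to 5 (without IUO replicate 2 or PNO replicate 6), and was 5 with the replicate block. Deviations of same-numbered pups do not decide whether the replicate numbers pair the pups. Their correlation was over 0.1 in 4 of 6 pairs of PNO and SAL pups (mean 0.232, highest 0.488). It was over 0.1 in 1 of 6 pairs of IUO and SAL pups (mean -0.0265) and in 3 of 6 pairs of IUO and PNO pups (mean 0.0626). Calls over all genes for IUO against PNO were 10, but 436 in DESeq2, 2028 in limma-voom with sample weights, 72 with only the pups compared, 19 without normalization, 6 with the replicate block and 1 to 95 with 1 pup left out (95 without PNO replicate 5, 1 without IUO replicate 3 or PNO replicate 4 or 6). For IUO against SAL they were 0, but 49 in DESeq2, 43 with sample weights and 1 without SAL replicate 2, and for PNO against SAL 0, but 1 in DESeq2.

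The direction of PNO against SAL was not fixed, although the edgeR values of all 18 pups, given here in brackets, were near 0. Alas2 (0.05) was -0.11 on TPM, -0.059 in limma-voom and -0.023 with the replicate block, and -0.15 to 0.22 with 1 pup left out. Hba-a2 row 1 (0.04) was -0.083 on TPM and -0.00093 with the block, and -0.13 to 0.32 with 1 pup left out. Hba-a3 (-0.06) was 0.55 on TPM, 0.58 in limma-voom, 1.33 with sample weights and 0.35 with the block, and -0.30 to 0.54 with 1 pup left out. Hba-a2 row 2 (-0.09) was 0.40 with sample weights, and -0.29 to 0.31 with 1 pup left out. Hbb (0.06) was -0.10 on TPM, -0.016 in limma-voom and -0.016 with the block, and -0.17 to 0.28 with 1 pup left out. The alpha to beta ratio was 2.55 in SAL, 2.56 in PNO and 3.16 in IUO on TPM, since the alpha rows are shorter, and 1.07, 1.06 and 1.35 with the unnamed rows LOC103694855 and LOC103694857 counted as beta chain, an alternative chosen after seeing the data. The causes of the other differences were not tested. Reads divided between copies limit the values of single alpha rows.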
